A study of Rattus norvegicus with 12 samples.

Results

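The miR-199a, miR-214, miR-143 and miR-145, which are linked with stromal cells, were followed in rat plasma. A probe belonged to the set when its name, with the rat prefix and any arm ending removed, was 1 of these 4, and 5 of the 420 endogenous probes did: rno-miR-199a-3p, rno-miR-199a-5p, rno-miR-214, rno-miR-143 and rno-miR-145. Membership was decided by name alone, and the set was chosen with earlier results of these data known. Plasma came from 12 female Wistar rats, 1 sample each: 6 pregnant rats killed at the gestational age E14.5 after timed mating, and 6 non-pregnant controls. Control rats were 110 to 269 days old and pregnant rats 103 to 373 days old, and each group held 2 older rats, of 239 days or more, and 4 younger ones. Blood was drawn from the heart after death, was spun repeatedly to remove cells and platelets, and RNA was counted on the nCounter, which adds 1 count for each imaged barcode bound to a miRNA. The labels name no genotype and no treatment other than pregnancy for either group.

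A miRNA is cut from a hairpin precursor, and either arm of the hairpin, 5p or 3p, can be loaded into the silencing complex, where bases 2 to 8, the seed, pair with target mRNAs. miR-143 and miR-145 are made from 1 primary transcript and are known as the leading miRNAs of smooth muscle, where they help to keep cells in the contractile state. miR-199a and miR-214 are likewise made together and are known from fibroblasts and other mesenchymal cells, and miR-199a-3p is also abundant in platelets. Plasma holds no cells of its own, so these miRNAs reach it in vesicles, in protein complexes or from damaged cells, and fewer releasing cells cannot be told apart from less RNA released by each cell.

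The mature sequences are shown because they say which molecules the probes can count and that no seed is shared among them. They are those of RefSeq on the rat assembly GRCr8, written 5′ to 3′ with the seed in capitals. Of the 5 probes, 2 matched a RefSeq name in full, both arms of miR-199a.
rno-miR-199a-5p: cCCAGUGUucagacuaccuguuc
rno-miR-199a-3p: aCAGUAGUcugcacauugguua
The 3 other probe names carry no arm, so both arms are given for each, and which of them the probe counts was not settled from the names.
rno-miR-214-5p: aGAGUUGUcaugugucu
rno-miR-214-3p: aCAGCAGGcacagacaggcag
rno-miR-143-5p: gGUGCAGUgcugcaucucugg
rno-miR-143-3p: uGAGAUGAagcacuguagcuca
rno-miR-145-5p: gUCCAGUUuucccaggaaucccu
rno-miR-145-3p: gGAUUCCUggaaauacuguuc
The 8 seeds printed here all differed from each other. In mouse the 3p arm of the related miR-199b has the same sequence as that of miR-199a, so that 1 probe counts both, and rno-miR-199b had no entry in the table.

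The precursors matched here to the 5 probes lay at 2 loci. Mir199a2 lay on chromosome 13, bases 77116225 to 77116334 of GRCr8, plus strand, and Mir214 followed on the same strand at bases 77121645 to 77121752, with 5310 bases between them. Both lay within the span of Dnm3, a gene for a dynamin of membrane fission, which is read from the minus strand. Mir145 lay on chromosome 18, bases 57369983 to 57370070, minus strand, and Mir143 at bases 57371349 to 57371453 of the same strand, 1278 bases apart. Both lay within Carmn, a long non-coding RNA on the minus strand that is known as the host of this pair in smooth muscle.

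The endogenous counts summed to between 6969 and 10176 in control rats and to between 5163 and 30301 in pregnant rats, so depth varied more widely in the pregnant group. With 1 sample per rat, the errors below are those between animals. A background level was set in each rat from the 4 exogenous probes for which no spike-in was added, since negative control counts were not used here. The mean of these 4 probes was 7.25 to 15.75 counts, and the mean + 1 SD was 12.6 to 32.4 counts. Intervals and levels built on so few counts cover counting and animal spread only, and the probes' capture efficiencies are not known, so counts of different miRNAs are given side by side without a ratio.

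rno-miR-145 and rno-miR-199a-3p were the only 2 of the 5 probes that stood above mean + 1 SD of the background in most rats, 11 of 12 each. Their mean raw counts ranked 26th and 34th among the 420 endogenous probes. rno-miR-143 was above that level in 3 rats, rno-miR-214 in 1 and rno-miR-199a-5p in 1. The last 3 were therefore measured close to the background, and differences in them were hardly detectable at this depth.

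Of miR-199a and its neighbour miR-214, the 3p arm of miR-199a had raw counts from 19 to 142 in control rats, with a median of 43.5, and from 14 to 192 in pregnant rats, with a median of 24. The highest controls were rats 1 and 2, with 142 and 110 counts, and the highest pregnant rats were rats 6 and 5, with 192 and 82. All other rats had 44 counts or fewer, and the groups overlapped over nearly their whole range. rno-miR-199a-5p, the other arm of the same hairpin, gave 2 to 13 counts in control rats, with a median of 8.5, and 2 to 35 in pregnant rats, with a median of 6. rno-miR-214 gave 2 to 16 counts in control rats, with a median of 5.5, and 4 to 24 in pregnant rats, with a median of 5. For both of these the highest count was again that of pregnant rat 6, and the low rats of both groups could not be separated from background.

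Of the smooth muscle pair, rno-miR-145 had raw counts from 24 to 176 in control rats, with a median of 34.5, and from 19 to 297 in pregnant rats, with a median of 29. Control rats 1 and 2 gave 176 and 74 counts and pregnant rats 6 and 5 gave 297 and 134, while all others had 35 counts or fewer. rno-miR-143 gave 6 to 19 counts in control rats, with a median of 15, and 9 to 24 in pregnant rats, with a median of 11.5. It varied least of the 5, by 2.62-fold between the lowest and highest of the 12 rats in CPM, against 9.56-fold for rno-miR-145. CPM are raw counts scaled to a common library total, here corrected with TMM, edgeR's trimmed mean scaling.

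**Figure D1:**
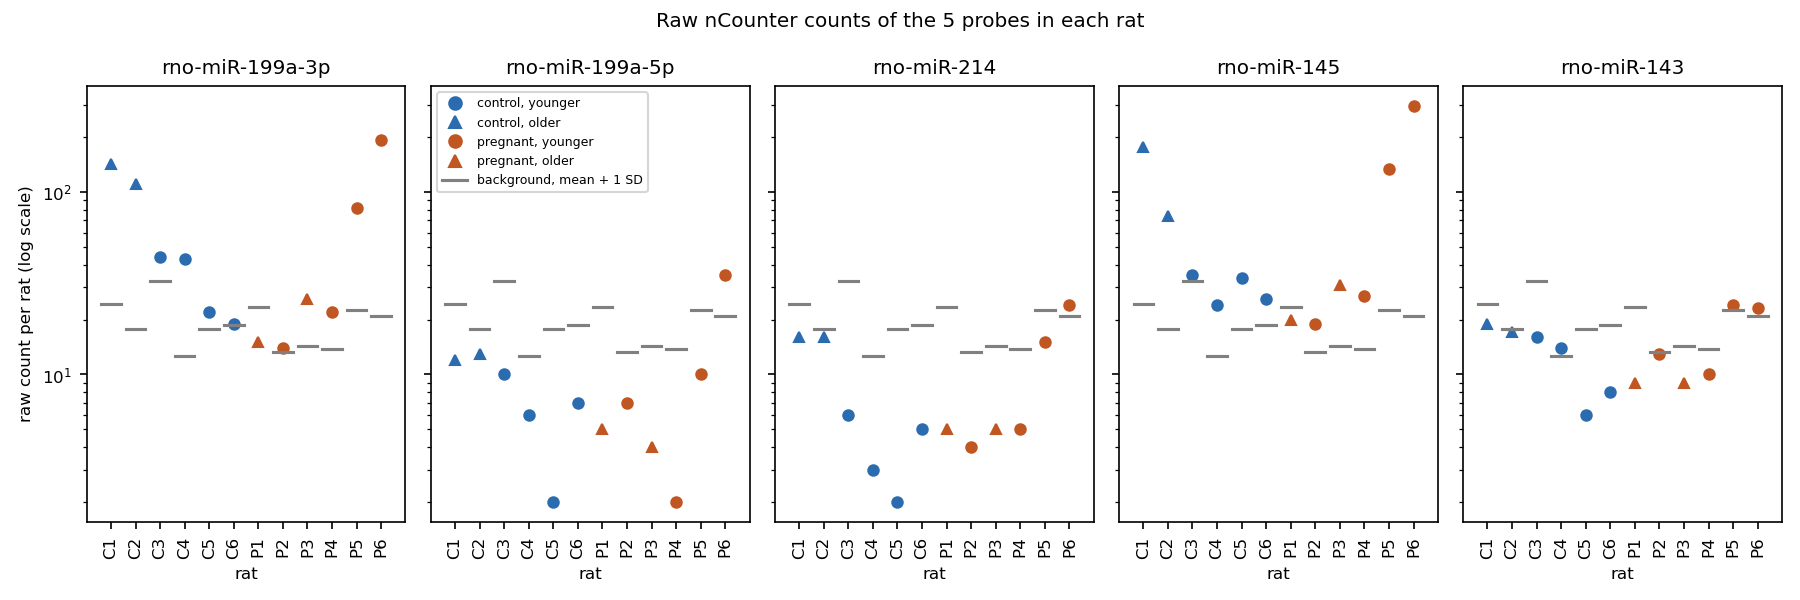
Raw nCounter counts (log scale) of the 5 probes in each of 6 control rats (C1 to C6) and 6 pregnant rats (P1 to P6), with triangles for rats of 239 days or more and a grey bar at each rat's background, the mean + 1 SD of 4 exogenous probes. rno-miR-199a-3p and rno-miR-145 stand above the bar in 11 of 12 rats each, and C1, C2, P5 and P6 are their highest rats.

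Pregnancy at E14.5 was compared with the non-pregnant state to ask whether these miRNAs changed in maternal blood. In edgeR's quasi-likelihood test 0 of the 5 passed the threshold of an adjusted p under 0.05, and 0 of all 187 tested probes did (0%). At an unadjusted p under 0.05 edgeR found 11 of 187 probes (5.88%), DESeq2 8, limma-voom 6 and the exact permutation test 6, and 0 after adjustment in each. The 5 probes were not among the 11. The groups overlapped in CPM for 5 of 5 members, as for all 187 tested probes, of which 0 were separated (0%).

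rno-miR-145 was at 6472 ± 5599 CPM in control rats and 7204 ± 7570 CPM in pregnant rats (SD, n = 6 each). The edgeR log2 fold change, pregnant over control, was 0.17 (SE 0.61, 95% interval -1.13 to 1.47, adjusted p = 0.967). In both groups the SD was close to or above the mean, and 2 pregnant rats, rats 5 and 6, lay above the mean of the controls. rno-miR-199a-3p was at 6777 ± 5189 CPM in control rats and 4906 ± 4707 CPM in pregnant rats (SD, n = 6 each), with an edgeR log2 fold change of -0.44 (SE 0.58, 95% interval -1.68 to 0.79, adjusted p = 0.903). Here 1 pregnant rat, rat 6, was above the control mean. Both intervals reach past a 2-fold change in at least 1 direction, so a change of that size could have gone undetected.

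rno-miR-143 was at 1433 ± 526 CPM in control rats and 1414 ± 289 CPM in pregnant rats (SD, n = 6 each). Its edgeR log2 fold change was 0.00 (SE 0.24, 95% interval -0.50 to 0.51, adjusted p = 0.998), the narrowest interval of the 5, in a probe whose counts lay near the background. rno-miR-199a-5p and rno-miR-214 had fewer than 10 counts in too many rats to be tested among the 187, and were read from the fit over all 420 probes, of which 0 were called (0%) and 20 (4.76%) had an unadjusted p under 0.05, neither of these among them. There the edgeR log2 fold change of rno-miR-199a-5p was 0.20 (SE 0.49, adjusted p = 0.996) and that of rno-miR-214 was 0.15 (SE 0.48, adjusted p = 0.996). The median log2 fold change was 0.002 over the 3 tested members and 0.046 over all 187 tested probes.

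The sign of these differences depended on the scaling for 4 of the 5 probes. With the library total alone in place of TMM, the median of all tested probes shifted to -0.33, and the log2 fold changes were -0.43 for rno-miR-143, -0.61 for rno-miR-145, -0.48 for rno-miR-199a-5p and -0.50 for rno-miR-214. rno-miR-199a-3p stayed below 0 under all scalings and tools run and with each rat left out in turn. With the library total alone it was at -1.14 on the log2 scale (edgeR, unadjusted p = 0.011, adjusted p = 0.566). In that fit 24 of 187 tested probes had a higher estimate, so most were lower as well. At an unadjusted p under 0.05, 12 of the 187 were lower and 1 was higher. Without pregnant rat 6 rno-miR-199a-3p was at -1.15 (edgeR, unadjusted p = 0.036, adjusted p = 0.865). There 5 of 182 tested probes were lower at an unadjusted p under 0.05 and 2 were higher. The lower value of miR-199a-3p in pregnancy was thus common to all settings in direction, and past the adjusted threshold in 0 of them. For rno-miR-145 leaving out pregnant rat 6 gave -0.61 and leaving out control rat 1 gave 0.73, so single rats set its sign.

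**Figure D2:**
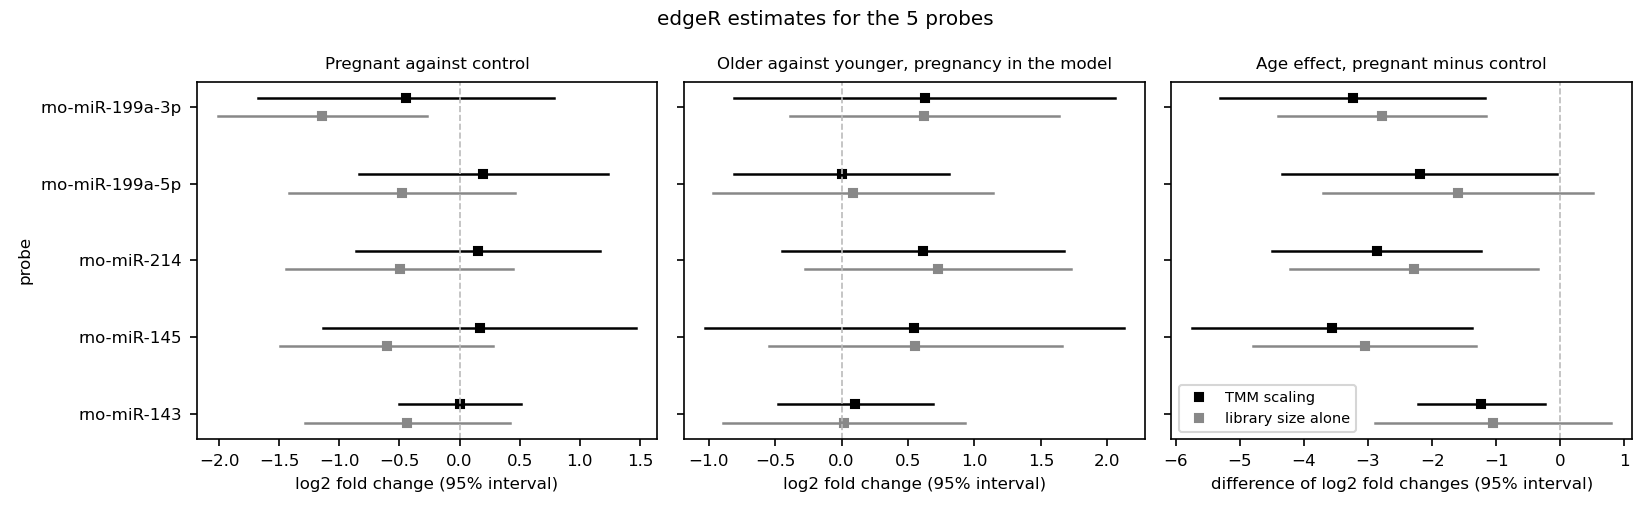
edgeR estimates (squares) with 95% intervals for the 5 probes, with TMM scaling in black and library size alone in grey: log2 fold change of pregnant over control, of older over younger rats, and the difference between the age effects of the groups. The pregnancy intervals include 0 with TMM for 5 of 5 probes, and with library size alone rno-miR-199a-3p lies at -1.14.

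The same probes were put through the 14 combinations of background correction and normalisation that the study set against each other in its analysis software, re-derived here with the 4 exogenous probes as background. Normalisers were either 38 probes above background in all rats (total RNA) or the 5 most stable of them by NormFinder. The most stable of the 5 was rno-miR-450a. Its own edgeR log2 fold change, pregnant over control, was 0.75 (SE 0.30, unadjusted p = 0.025, adjusted p = 0.670). Those of the 4 others lay between -0.07 and 0.04. The part of rno-miR-450a in the ratios below was not tested. Of the 38, 0 were members. Because the negative controls were not used, these normalisers are not the set that the study worked with, and the workflow values are not the study's own. Of 70 pairs of member and workflow, 0 were called by the methods' t-test at its unadjusted threshold and 0 by a two-sided exact permutation test, against 63 of 5880 pairs (1.07%) over all endogenous probes with the methods' t-test.

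The ratio of the pregnant to the control mean of rno-miR-199a-3p was below 1 in 14 of 14 workflows, from 0.407 to 0.755. It was 0.648 to 0.755 with the NormFinder normalisers and 0.407 to 0.620 with total RNA, and the exact permutation p ran from 0.232 to 0.745. rno-miR-145 changed sides with the normalisers. Its ratio was 1.11 to 1.23 in the 7 NormFinder workflows and 0.709 to 0.885 in the 7 total RNA workflows, with an exact permutation p of 0.669 or more throughout. Within each set of normalisers the background setting left the ratio on the same side of 1. The edgeR estimate of this probe also turned sign when a single rat was left out.

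Of the probes near background, the ratio of rno-miR-199a-5p ran from 0.880 to 2.29, with its values furthest above 1 in workflows that subtract background, in which values under 1 are set to a floor of 1. rno-miR-143 ran from 0.767 to 1.15 and rno-miR-214 from 0.762 to 1.09. The lowest exact permutation p of the whole set, 0.0736, belonged to both of them in the same workflow, NormFinder with mean + 2 SD subtracted, where neither had a rat above the background level. All 12 rats were then at the floor of 1 for both probes, and the value compared was each rat's normalising factor alone, identical for the pair.

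**Figure D3:**
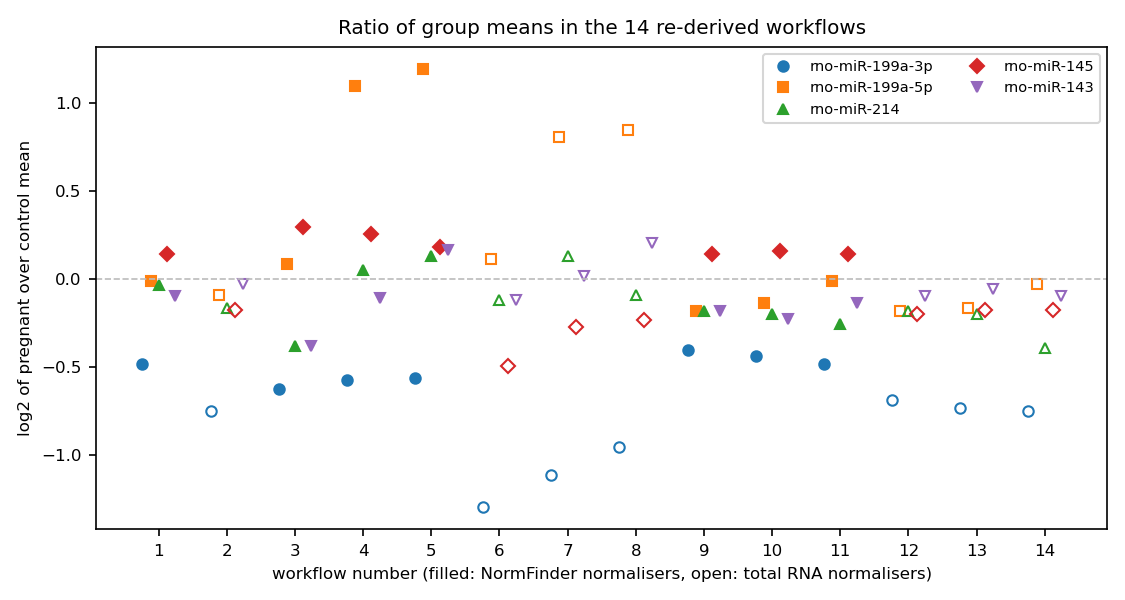
log2 of the ratio of the pregnant mean to the control mean for the 5 probes in each of 14 workflows, filled for NormFinder and open for total RNA normalisers. rno-miR-199a-3p lies below 0 in 14 of 14, and rno-miR-145 lies above 0 with NormFinder and below 0 with total RNA.

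The rats that were high for one member by TMM-scaled CPM were high for the others. The 4 highest rats were control rats 1 and 2 and pregnant rats 5 and 6 for rno-miR-199a-3p, rno-miR-145, rno-miR-214 and rno-miR-143, and for rno-miR-199a-5p control rat 3 took the place of pregnant rat 5. For rno-miR-143 this order was close, with pregnant rat 5 at 1661 CPM and pregnant rat 2 at 1637 CPM. It also depended on the scaling: with library size alone, rno-miR-145 kept this set and the 4 other probes did not, and pregnant rat 5 ranked the 6th for rno-miR-199a-3p. TMM factors were 0.65 and 0.48 in pregnant rats 5 and 6, against 1.96 in pregnant rat 2. Over all 187 tested probes, 6 (3.21%) had this set of 4 highest rats: the 3 tested members, let-7b, let-7c and miR-125a-5p.

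Over the 12 rats, log2 CPM of rno-miR-145 and rno-miR-199a-3p, which come from different chromosomes, correlated with Pearson's r = 0.90 (permutation p = 0.00014, adjusted over 10 pairs 0.0014) and Spearman's rho = 0.86 (adjusted permutation p = 0.0064). Without the 2 rats farthest from the median of the probe on the x axis, control rat 1 and pregnant rat 6, r was 0.81 (adjusted permutation p = 0.036). Of the pairs made from 1 locus, rno-miR-199a-3p and rno-miR-214 gave r = 0.83 (adjusted permutation p = 0.0054) and rho = 0.71 (adjusted permutation p = 0.024), and r = 0.69 without the 2 rats farthest from the median (adjusted permutation p = 0.080). The 2 arms of miR-199a gave r = 0.71 (adjusted permutation p = 0.019) and rho = 0.60 (adjusted permutation p = 0.061), and r = 0.52 without the 2 farthest rats. rno-miR-143 and rno-miR-145 gave r = 0.53 (adjusted permutation p = 0.078) and rho = 0.57 (adjusted permutation p = 0.075), the lowest r of the 10 pairs. Each of these pairs from 1 locus holds at least 1 probe close to background.

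Over the 10 pairs the median r was 0.707, and 9 had an adjusted permutation p under 0.05, or 6 by rho. Without the 2 rats farthest from the median 1 pair did. Within the pregnant rats the median r was 0.717 and within the controls 0.826 (n = 6 rats each), with 3 and 2 pairs at an adjusted permutation p under 0.05, and within the pregnant rats rno-miR-145 and rno-miR-199a-3p reached r = 0.99 (exact permutation p = 0.0014, adjusted over 10 pairs 0.014). In the 8 rats other than the 4 high ones, a choice made after the data were seen that narrows the range by its construction, the median r was 0.118, from -0.602 to 0.527, and 0 of 10 pairs had a permutation p under 0.05, so no relation was detected apart from the 4 high rats. Each pair of values also shares a library and its scaling factor. With the library total alone the median r was 0.636 and 5 pairs had an adjusted permutation p under 0.05.

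**Figure D4:**
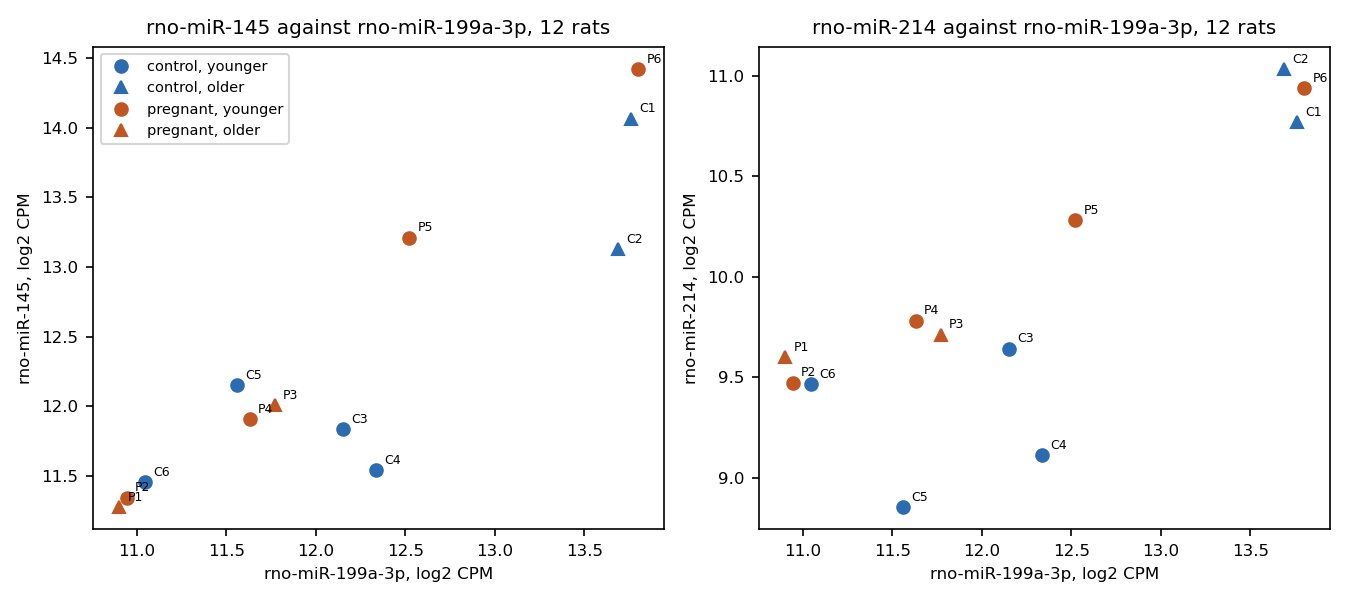
log2 CPM of rno-miR-145 (left) and rno-miR-214 (right) against rno-miR-199a-3p in 12 rats, with triangles for rats of 239 days or more. Over the 12 rats r was 0.90 and 0.83, and C1, C2, P5 and P6 lie at the upper right of both plots with this TMM scaling.

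Among the tested probes, those most like each member over the 12 rats were named by Spearman's rho, as a description. For rno-miR-199a-3p they were miR-125a-5p (0.91), let-7c (0.86) and rno-miR-145 (0.86). For rno-miR-145 they were miR-29c (0.91) and miR-29a (0.87), members of a family known for targeting collagen mRNAs, and then rno-miR-199a-3p. rno-miR-214 was closest to miR-29c (0.78), let-7a (0.77) and rno-miR-143 (0.77). rno-miR-143 was closest to miR-125a-5p (0.79), rno-miR-199a-3p (0.78) and miR-615 (0.68), and rno-miR-199a-5p to rno-miR-143 (0.76), miR-615 (0.76) and miR-139-3p (0.73). The median rho of a member with all other tested probes lay between -0.014 and 0.014.

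The 2 older controls were the 2 that were high. For 5 of 5 members both older controls were above all 4 younger controls in CPM. This held for 16 of all 187 tested probes (8.56%), which include 3 of the members and not rno-miR-214 or rno-miR-199a-5p. With library size alone it was again 5 of 5 members, and 8 of 187 tested probes (4.28%). With 2 older rats, age cannot be told apart from any other difference of these rats. rno-miR-199a-3p had a mean of 13323 CPM in the 2 older controls and 3504 CPM in the 4 younger ones, 3.80-fold apart. rno-miR-145 was 3.90-fold higher in the older controls by the same means, and 2.65-fold without control rat 1. For rno-miR-214 and rno-miR-199a-5p 0 of the 6 controls were above mean + 1 SD of the background, and for rno-miR-143 1 was, so no fold is given for these. In the pregnant rats 0 of 5 members had both older rats on top (4 of 187 tested probes, 2.14%). For rno-miR-143 both older pregnant rats were below all 4 younger ones (9 of 187 tested probes, 4.81%). This rested on raw counts near background, 9 in each older rat and 10 in younger pregnant rat 4. With library size alone it did not hold, with older pregnant rat 1 at 1032 CPM and younger pregnant rat 6 at 759 CPM. In TMM-scaled CPM the mean of the 4 younger pregnant rats was 2.45-fold that of the 2 older ones for rno-miR-199a-3p and 2.99-fold for rno-miR-145. Pregnant rat 6 carried much of this, and without it the values were 1.39-fold and 1.65-fold.

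**Figure D5:**
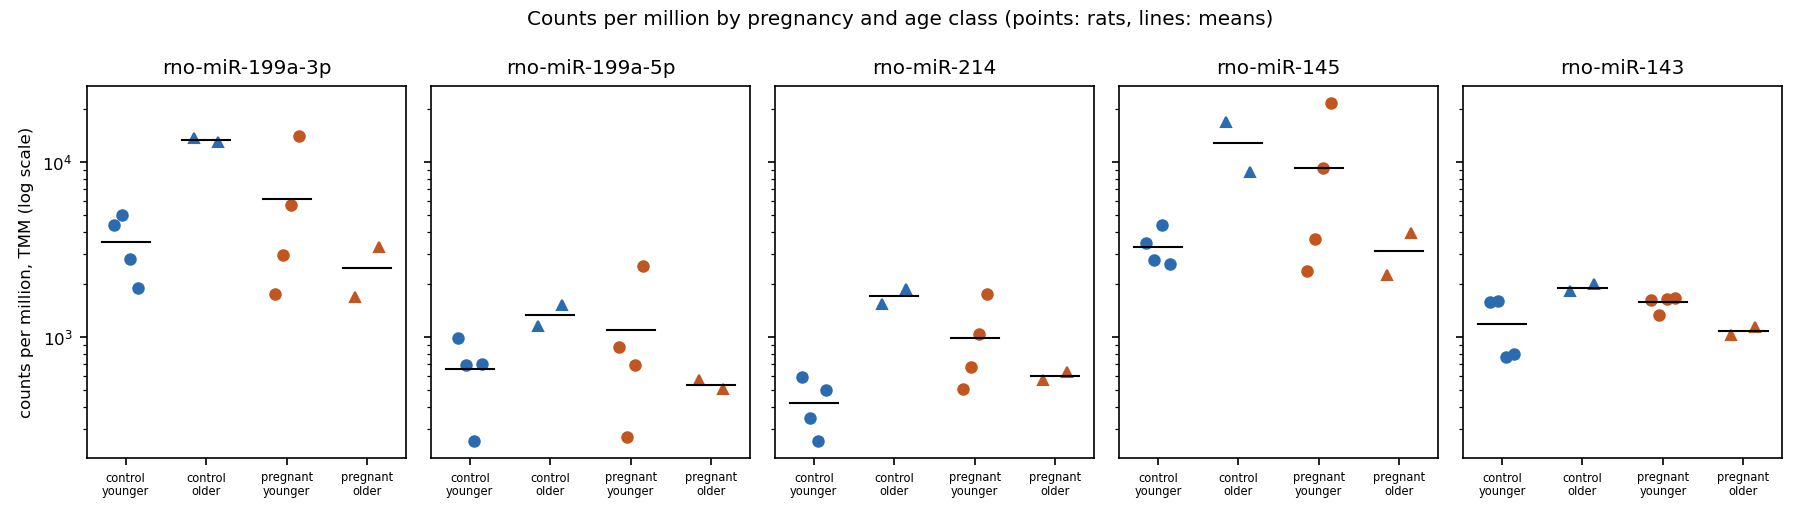
CPM (log scale) of the 5 probes in younger control (n = 4), older control (n = 2), younger pregnant (n = 4) and older pregnant rats (n = 2), with a line at each mean. Both older controls lie above all younger controls in 5 of 5 plots, and 0 of 5 plots show this in the pregnant rats.

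With both groups in 1 model, older against younger rats differed by log2 fold changes of 0.62 for rno-miR-199a-3p (SE 0.67, adjusted p = 0.754), 0.55 for rno-miR-145 (SE 0.73, adjusted p = 0.801) and 0.10 for rno-miR-143 (SE 0.27, adjusted p = 0.907) in edgeR. rno-miR-214 was at 0.61 (SE 0.50) and rno-miR-199a-5p at -0.0004 (SE 0.38) in the fit over all 420 probes. Of the 187 probes 0 were called by age (0%), and 12 had an unadjusted p under 0.05 (6.42%), none of them a member. Over all 420 probes 27 (6.43%) did, again with no member.

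Because the older rats were high in one group and not in the other, the difference between the age effects of the groups was fitted as well, a test chosen after the data were seen. On the log2 scale the age effect in pregnant rats minus that in controls was -3.56 for rno-miR-145 (SE 1.01, 95% interval -5.74 to -1.38) and -3.24 for rno-miR-199a-3p (SE 0.96, -5.31 to -1.17). It was -1.23 for rno-miR-143 (SE 0.46), -2.86 for rno-miR-214 (SE 0.77) and -2.19 for rno-miR-199a-5p (SE 1.01). The unadjusted edgeR p was 0.0036, 0.0048, 0.019, 0.0019 and 0.046 in that order, and the adjusted p was 0.446, 0.446, 0.705, 0.280 and 0.845, so 0 members passed and 0 of 187 probes did (0%). In this direction 7 of 187 probes (3.74%) had an unadjusted p under 0.05: the 3 tested members, miR-125a-5p, miR-21, miR-29c and miR-349. In the fit over all 420 probes, from which rno-miR-214 and rno-miR-199a-5p were read, 17 (4.05%) did, and 0 were called (0%). Leaving out pregnant rat 2, a younger rat, brought the adjusted p to 0.035 for rno-miR-145 and for rno-miR-199a-3p and to 0.043 for rno-miR-214, the last in the fit over all probes, and 4 of the 183 probes tested were called. The change was not limited to the members. Of the 183, 26 were then lower at an unadjusted edgeR p under 0.05 and 8 higher, against 7 and 2 of 187 with all rats. Pregnant rat 2 had the lowest endogenous total, 5163 counts, and a TMM factor of 1.96. How many of all 420 probes were called without it is not given here. With each of the 11 other rats left out 0 were called, and the lowest adjusted p over all probes tested was between 0.277 and 0.987. The estimate was below 0 for 5 of 5 members with each rat left out in turn. It rests on 2 older rats in each group.

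Other miRNAs linked with stroma, blood cells and organs were read as lists beside the 5. Of 15 names known from smooth muscle and fibroblasts, 14 were matched by 15 probes and 8 of these were tested, 7 with a higher and 1 with a lower estimate in pregnant rats and 0 called. Their median log2 fold change was 0.77, against 0.046 over all tested probes, and the medians of the platelet, red cell, leukocyte and liver lists were 0.72, 0.76, 0.62 and 1.33. Of all 187 tested probes 104 had a higher estimate in pregnant rats, and 24 with library size alone. miR-22, the most abundant of the smooth muscle and fibroblast list, was at 1.11 (SE 0.66, edgeR adjusted p = 0.732). miR-21, known from activated fibroblasts, was at 1.23 (SE 0.57, edgeR unadjusted p = 0.0498, adjusted p = 0.732). miR-24 had a count of 1 in all 12 rats. The summed CPM of the list was 48554 to 121737 in control rats and 29080 to 354727 in pregnant rats. By this sum pregnant rats 6 and 5 ranked the 1st and 2nd of 12 and pregnant rats 3 and 4 the 3rd and 4th, while control rats 2 and 1 ranked the 5th and 6th.

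In TMM-scaled CPM, pregnant rats 5 and 6 were high for the members and for blood cell markers. Control rats 1 and 2 were high for the members and not by the blood cell sums. These sums are weighted to their most abundant probes. In the platelet list the mean raw count was 492.5 for miR-16 and 149.8 for miR-126. It was 616.8 for miR-451 and again 492.5 for miR-16 in the red cell list, and 568 for miR-150 and 90.3 for miR-146a in the leukocyte list. The ranks of the rats by single marker probes are not given, so the sums say little about the less abundant ones. Of 5 platelet names 4 probes were tested and 4 had a higher estimate in pregnant rats, with 0 called, and their summed CPM was 30936 to 73663 in control rats and 5413 to 209162 in pregnant rats. By this sum pregnant rats 6 and 5 ranked the 1st and 2nd of 12, and control rats 1 and 2 the 8th and 10th. Of the red cell names 3 of 4 were matched, and 3 of 3 tested probes had a higher estimate in pregnant rats, with 0 called. By their sum, which was 37312 to 143517 in control rats and 7050 to 308663 in pregnant rats, pregnant rats 5 and 6 ranked the 1st and 2nd and control rats 1 and 2 the 7th and 10th. miR-144, made with miR-451 in red cells, had a log2 fold change of 1.31 (edgeR unadjusted p = 0.0216, adjusted p = 0.670). The more abundant miR-451 was at 0.57 (SE 0.71, edgeR unadjusted p = 0.432, adjusted p = 0.897). The leukocyte list had 5 tested probes, 4 with a higher and 1 with a lower estimate in pregnant rats and 0 called. By its sum, 22602 to 87717 in control rats and 12085 to 175424 in pregnant rats, the ranks were the 1st and 2nd for pregnant rats 6 and 5 and the 10th and 9th for control rats 1 and 2. Both high controls ranked the 7th or lower in each of the 3 sums, also with library size alone. With library size alone pregnant rats 5 and 6 still ranked the 1st and 2nd by the platelet sum, but the 1st and 4th by the red cell sum and the 2nd and 3rd by the leukocyte sum, where control rat 5 was highest. The part of blood cell RNA in the levels of the 5 members was not tested.

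The liver sum of 3 probes was 14616 to 312784 in control rats and 10952 to 723828 in pregnant rats, and was highest in pregnant rat 3, which was low for rno-miR-145 and rno-miR-199a-3p, followed by pregnant rat 6 and control rat 2, which were high for them. Both tested liver probes had a higher estimate in pregnant rats, and 0 were called. miR-192, known from liver and gut, had a log2 fold change of 1.01 (edgeR unadjusted p = 0.0346, adjusted p = 0.670). The skeletal and cardiac muscle sum was 10580 to 23900 in control rats and 8637 to 26928 in pregnant rats, with 1 higher and 3 lower estimates among 4 tested probes, 0 called, and miR-208 at a count of 1 in all rats. By it pregnant rat 5 ranked the 1st of 12, control rat 2 the 4th, pregnant rat 6 the 5th and control rat 1 the 10th. These lists share miR-16, miR-24 and miR-223 between cell types.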

How the data were processed

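The authors deposited raw nCounter counts per probe of the rat miRNA codeset, with no background correction or normalisation, for 420 endogenous, 5 exogenous and 4 mRNA probes in 12 rats. 0 columns were unused, and 0 of 66 pairs of rats had identical counts. Groups and ages came from the labels. The members and lists were chosen with earlier results of these data known. edgeR 4.0.16 (R 4.3.3; quasi-likelihood test, TMM) was fitted to the endogenous probes, keeping those with 10 or more counts in 6 or more rats, with Benjamini-Hochberg adjustment over all of them. Members outside this filter were read from the fit on 420. log2 CPM used a prior count of 2. DESeq2 1.42.0 and limma 3.58.1 were alternatives. Workflows subtracted or thresholded the mean, mean + 1 SD or mean + 2 SD of 4 exogenous probes (osa-miR442, ath-miR159a and 2 from worm, cel-miR-254 and cel-miR-248), with a floor of 1 after subtraction and the positive control factor left out. Correlations used 100000 permutations, exact within groups. For each member the 3 tested probes of highest rho were named. Of the marker lists, estimates were given for the tested probes with an unadjusted p under 0.05 and for miR-22 as the most abundant of its list. Those of miR-26a and miR-451 were given beside them. The fits and NormFinder were tested on simulated data. scipy 1.17.1 was used.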

Additional observations from a re-analysis of the deposited data

Results flagged for a closer look

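In 2 of 20 groups of 6 rats tested (raw counts and log2 CPM of 5 probes in both groups), the highest rat stood apart from the rest of its group by a gap that passed Dixon's critical value for 6 samples at the 95% level, and chance gives about 1 in 20. For rno-miR-145 in raw counts this was control rat 1, with 176 counts, and the gap was 0.671 of the range. For rno-miR-199a-5p in raw counts it was pregnant rat 6, with 35 counts, and the gap was 0.758 of the range. Of the groups on the log2 CPM scale 0 were set apart in this way.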

How the results depend on the processing

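No setting brought a member past the adjusted threshold for pregnancy or for age. For pregnancy, 4 estimates turned sign. rno-miR-143 was -0.43 with library size alone, -0.023 with DESeq2's size factors in edgeR, -0.13 with the total RNA normalisers as library size and -0.022 with DESeq2. rno-miR-145 was -0.61 with library size alone, -0.15 with the total RNA normalisers, -0.24 with limma-voom and -0.0014 as the difference of mean log2 CPM in the exact permutation test. In the same order rno-miR-199a-5p was -0.48, -0.10, -0.016 and -0.098. rno-miR-214 was -0.50 with library size alone and -0.14 with the total RNA normalisers. For age, rno-miR-199a-5p was 0.088 with library size alone. The cause was not tested. Leaving out each rat in turn, the pregnancy log2 fold change ran from -0.13 to 0.10 (rno-miR-143), -0.61 to 0.73 (rno-miR-145), -1.15 to -0.12 (rno-miR-199a-3p), -0.56 to 0.41 (rno-miR-199a-5p) and -0.24 to 0.51 (rno-miR-214). The age log2 fold change ran from -0.053 to 0.30, -0.15 to 1.16, 0.29 to 1.19, -0.35 to 0.51 and 0.26 to 1.03 in the same order of probes. The difference of the age effects ran from -1.41 to -1.09, -3.96 to -2.63, -3.67 to -2.37, -2.45 to -1.26 and -3.04 to -2.40. Calls over all probes ran from 0 to 0 for pregnancy, 0 to 3 for age and 0 to 4 for the difference of the age effects, in the last 2 with calls only without pregnant rat 2, and member calls in the workflows from 0 to 3. Those 3 were rno-miR-143 in 2 workflows and rno-miR-214 in 1 without pregnant rat 2, and without control rat 4 rno-miR-214 was called in 1. Without pregnant rat 2, both were called in NormFinder with mean + 2 SD subtracted. Their means were identical there, 0.867 in pregnant and 1.57 in control rats, the normalising factors of probes at the floor. How many of all probes were called in these settings is not given here, so the member calls have no share to be read against.

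With 5 exogenous probes as background the workflows called 2 members, rno-miR-143 and rno-miR-214 at the floor. The value compared was again the normalising factor alone, and the share over all probes is not given. The rats above background for rno-miR-143 were 5 with the 4 mRNA probes, 9 at the mean and 0 at mean + 2 SD, for rno-miR-214 they were 3, 4 and 0, for rno-miR-199a-5p 2 with the mRNA probes and 2 at the mean, and for rno-miR-199a-3p 7 at mean + 2 SD. The median r of the pairs was 0.82 in log2 raw counts, 0.83 within controls and 0.12 without the 4 high rats, where r was -0.21 for rno-miR-143 and rno-miR-145, -0.60 for rno-miR-145 and rno-miR-199a-5p, -0.16 for rno-miR-145 and rno-miR-214 and -0.16 for rno-miR-199a-3p and rno-miR-214. The labels do not say that replicate numbers pair the rats. Deviations from the group mean correlated between -0.34 and 0.27 in same-numbered rats, which alone cannot settle whether they were paired. With the replicate number as a block the log2 fold changes were 0.04 for rno-miR-143, 0.02 for rno-miR-145, -0.55 for rno-miR-199a-3p, 0.05 for rno-miR-199a-5p and 0.16 for rno-miR-214, and 0 probes were called. Low counts limit rno-miR-143, rno-miR-214 and rno-miR-199a-5p most.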
